A study of Mus musculus with 12 samples.

Results

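The genes described here are 10 genes of peptide presentation by major histocompatibility complex (MHC) class II. They were taken by name, H2-Aa, H2-Ab1, H2-Eb1, H2-DMa, H2-DMb1, H2-DMb2, H2-Oa, H2-Ob, Cd74 and Ciita, from the 27179 genes of a count table of bone marrow B cells. All 10 passed the filter on low counts, as did 13592 genes in all. The cells were bone marrow B cells of C57BL/6 mice with a B220high IgM+ CD93- surface, labelled as mature, and their polyadenylated RNA was sequenced in 4 groups of 3 libraries. Old wild-type (WT) mice were 98, 99 and 100 weeks of age, and young WT mice 9, 10 and 11 weeks. The other 2 groups were 10 weeks of age and shared the Bak-/- genotype. Apoptosis-resistant mice were Bak-/- BaxD/D, with Bax deleted. Apoptosis-sensitive mice were Bak-/- Baxfl/fl, with Bax floxed and intact. BAK and BAX are the effector proteins that open the outer mitochondrial membrane in apoptosis. The labels name neither the driver of the Bax deletion nor the cells in which it acted, and say nothing of pooled animals. The study's design text calls the libraries of a group biological replicates.

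MHC class II molecules present peptides from endocytosed proteins to CD4+ T cells, and B cells use them to obtain T cell help for antibody responses. An alpha and a beta chain are assembled with the invariant chain, CD74, which fills the peptide groove and directs the complex to endosomes. There CD74 is cut down to the CLIP peptide, the peptide exchange factor H2-M (encoded by H2-DMa with H2-DMb1 or H2-DMb2) replaces CLIP with other peptides, and H2-O (H2-Oa and H2-Ob) restrains H2-M, above all in B cells. The coactivator CIITA switches these genes on. It does not bind DNA itself but docks on RFX, CREB and NF-Y factors at the X and Y boxes of their promoters. C57BL/6 mice carry a defective H2-Ea gene and therefore lack the surface I-E molecule whose beta chain H2-Eb1 encodes.

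The promoter stretches below are shown because the X and Y boxes are the sequences through which CIITA acts on the genes whose levels are given. RefSeq promoter windows (GRCm38.p6, from 250 bases before to 50 bases after the transcription start) had an entry for 7 of the 10 genes, all on chromosome 17. The genes without an entry were H2-Ab1, Ciita and Cd74. Each stretch of 75 bases is printed 5′ to 3′ on the strand of its gene, with the cores TGATTGG (Y box) and AACNNATG (X box, N being any base) in capitals. Both letter patterns were chosen after these promoters had been read.
H2-Eb1: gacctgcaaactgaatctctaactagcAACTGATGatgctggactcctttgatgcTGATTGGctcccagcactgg
H2-DMb1: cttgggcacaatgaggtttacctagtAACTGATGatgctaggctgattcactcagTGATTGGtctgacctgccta
H2-DMb2: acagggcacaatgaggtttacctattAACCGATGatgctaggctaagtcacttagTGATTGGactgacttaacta
H2-Ob: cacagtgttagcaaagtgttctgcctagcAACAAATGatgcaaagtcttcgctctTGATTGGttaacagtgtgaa
H2-Eb2: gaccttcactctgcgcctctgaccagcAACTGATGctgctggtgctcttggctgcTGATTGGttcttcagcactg
H2-Aa: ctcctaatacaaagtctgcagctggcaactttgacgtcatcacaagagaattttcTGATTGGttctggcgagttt
H2-Oa: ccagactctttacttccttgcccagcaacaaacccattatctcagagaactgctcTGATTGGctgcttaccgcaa
The stretches lie at chr17:34305751-34305825 (H2-Eb1), chr17:34153073-34153147 (H2-DMb1), chr17:34145102-34145176 (H2-DMb2), chr17:34238791-34238865 (H2-Ob), chr17:34325518-34325592 (H2-Eb2, the beta-chain gene next to H2-Eb1), chr17:34287854-34287928 (H2-Aa, minus strand) and chr17:34092279-34092353 (H2-Oa). The Y core was in the windows of 6 of the 7 genes, all but H2-DMa, which had 2 windows. It began 61 bases before the start in H2-Eb1, 63 in H2-DMb1, 59 in H2-Ob, 50 in H2-Aa, 92 in H2-DMb2 and 45 in H2-Oa. The X core was found in 4 of the 7 genes, beginning 28 bases ahead of the Y core in H2-Eb1, 29 in H2-DMb1, 29 in H2-DMb2 and 26 in H2-Ob. H2-Eb2 had both cores too, also 28 bases apart. Searched on both strands of all 32851 windows, the Y core was in 2568 (7.82%) and the X core in 2912 (8.86%). The letters of the Y core read on the other strand hold the CCAAT box. An X core followed by a Y core on the strand of the gene, with starts under 60 bases apart, was in 17 windows (0.0517%), among them those of H2-Eb1, H2-DMb1, H2-DMb2, H2-Ob and H2-Eb2. The X and Y letters do not overlap in these windows. A match is a match of letters and no measure of binding.

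Total counts ran from 13474162 to 23539764 per library. Bax had 4.97 to 8.36 CPM (a library's counts scaled by TMM to a common total) in apoptosis-resistant libraries, against 55.7 to 100 CPM in apoptosis-sensitive libraries, and Bak1 had 6.17 to 14.4 CPM in the 6 Bak-/- libraries, against 24.7 to 47.9 CPM in the 6 WT libraries, so both genes followed the labels. Genes that define B cells, among them Ms4a1 and Cd79a, summed to 16133 to 23070 CPM over 10 genes. Each replicate number stands for a collection date shared by the 2 WT groups or by the 2 Bak-/- groups. The WT pair of replicate 1 carries the label 24 March 2006, while the other 10 libraries carry dates in April (WT) or May (Bak-/-) of 2016. This pair stood apart from the other 10 libraries on the first principal component, which held 31.9% of the variance. Because it also stood apart in the class II genes, results are given with and without it.

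Cd74 was the most abundant member by level per length. Levels are given as CPM per kilobase of exon, which allows genes of unlike length to be compared, over the 10 libraries of 2016. Cd74 averaged 8312 ± 1350 CPM per kb (SD, n = 10) and ranked 1st in each of these libraries among 12045 genes with a transcript length. Next came the chains of the I-A molecule, H2-Aa at 3193 ± 451 and H2-Ab1 at 2183 ± 371 CPM per kb, and H2-Eb1 at 1838 ± 331 CPM per kb. H2-Aa ranked 2nd among these genes in all 10 libraries. Tested genes without such a length were not ranked. The regulators of peptide exchange were less abundant. H2-Ob had 540 ± 36.9 CPM per kb, H2-DMb2 390 ± 23.9, H2-DMa 206 ± 28.2, H2-Oa 155 ± 30.5 and H2-DMb1 148 ± 17.9 CPM per kb. Ciita, which encodes the coactivator, was lowest at 122 ± 24.1 CPM per kb. Cd74, H2-Eb1, H2-Ob and H2-DMb2 each lay wholly above the next gene in this order, whereas H2-Aa, H2-Ab1 and H2-Eb1 overlapped in sequence, and so did H2-DMa, H2-Oa, H2-DMb1 and Ciita. The partners of the H2-O dimer were unequal in RNA, with H2-Oa at 0.211 to 0.400 of H2-Ob in these 10 libraries.

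**Figure D1:**
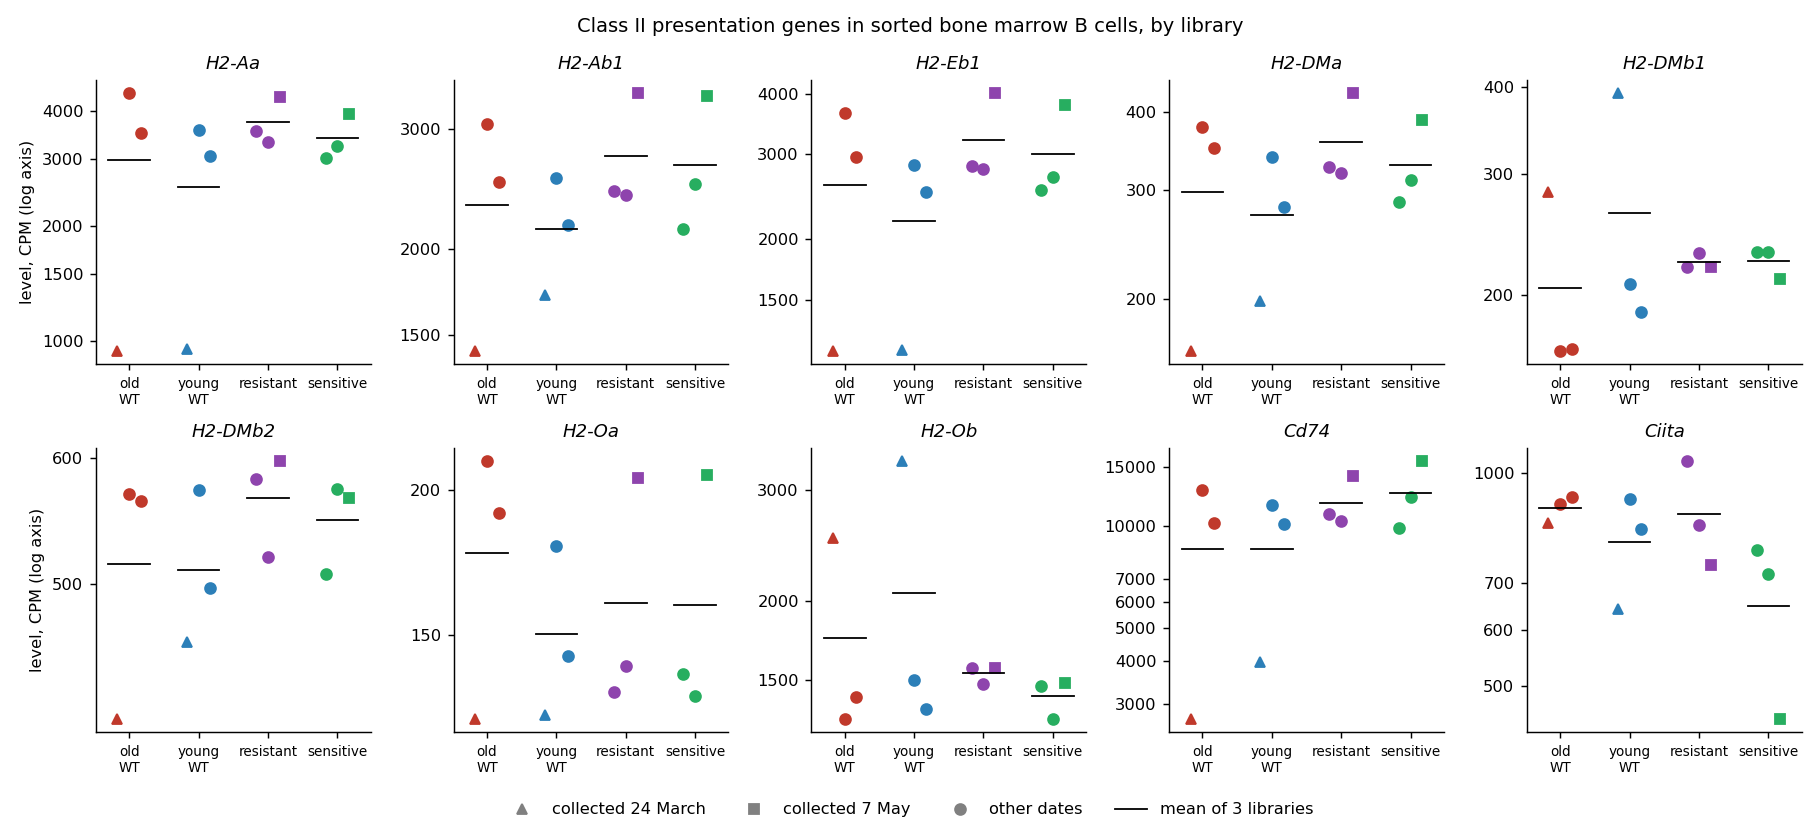
Level of each of the 10 genes in CPM (log axis) in the 12 libraries, with a line at the mean of each group of 3. Triangles mark the pair labelled 24 March and squares the pair of 7 May. The triangles lie far below the other libraries for H2-Aa and Cd74 (2698 and 3978 CPM for Cd74) and far above them for H2-Ob.

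The 24 March pair had a different class II profile. H2-Aa had 938 CPM in the old and 949 CPM in the young library of that date, against 3051 to 4474 CPM in the other 4 WT libraries. Cd74 had 2698 and 3978 CPM in the pair, against 10139 to 12792 CPM in the other WT libraries. Neither gene overlapped between the pair and any other library. H2-Ob had the opposite pattern, with 2518 and 3335 CPM in the pair and 1303 to 1502 CPM in the other WT libraries, and so did H2-DMb1, with 282 and 393 CPM against 166 to 208 CPM. In a fit of group plus a term for this date, added after the data had been seen, 8 of the 10 genes were called (edgeR quasi-likelihood test, Benjamini-Hochberg adjusted p under 0.05), while 46.6% of all genes tested were called. The pair is 1 collection date, and its 2 libraries deviated together from their group means (correlation 0.745). The fit counts them as independent, so its p values do not measure the spread between dates. Of the members 2 were higher, against 21.9% of all genes, and 6 lower, against 24.6%. H2-Aa fell by 1.94 ± 0.19 (log2 fold change ± SE, adjusted p = 2.56e-05, edgeR), Cd74 by 1.76 ± 0.25 (adjusted p = 0.000185) and H2-Eb1 by 1.34 ± 0.22 (adjusted p = 0.000593). H2-DMa fell by 0.89 ± 0.19, H2-Ab1 by 0.70 ± 0.22 and H2-DMb2 by 0.34 ± 0.12 (edgeR adjusted p = 0.00234, 0.0234 and 0.0386). H2-Ob rose by 1.06 ± 0.12 (adjusted p = 5.67e-05) and H2-DMb1 by 0.88 ± 0.10 (adjusted p = 4.53e-05, edgeR). H2-Oa (-0.50 ± 0.22) and Ciita (-0.27 ± 0.21) did not pass the test, with adjusted p = 0.0798 and 0.319 (edgeR). H2-Aa, H2-Eb1, H2-DMb1, H2-Ob and Cd74 were called in 10 of 10 alternative fits, H2-DMa in 9, H2-Ab1 in 6, H2-DMb2 in 3, H2-Oa in 2 and Ciita in 0. With old WT replicate 1 left out, so that the young library alone stood for the pair and was assumed to vary like the others, 5 members were called. The median over the members was -0.60, against -0.05 over all genes.

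Other genes of antigen processing and markers of other cells were counted in the 24 March pair, where 24.6% of all genes were lower and 21.9% higher. Of the 10 endosomal proteases and reductases, 9 were lower and none was higher, and of the 7 genes of class II surface turnover 5 were lower and none was higher. Monocyte and macrophage markers were lower in 6 of 9 and higher in none, and plasma cell markers lower in 6 of 9 and higher in none. Dendritic cell markers were lower in 2 of 6, granulocyte markers in 1 of 7 and erythroid markers in 3 of 5, with none higher. Of the T cell markers 1 of 8 was higher and none lower, and they summed to 77.0 and 72.0 CPM in the old and young library of the pair, against 36.0 to 54.7 CPM in the other WT libraries. Most of each sum was Lck, with 60.1 and 70.6 CPM in the pair, against 26.3 to 35.2 CPM in the other WT libraries. The sums are therefore no measure of the T cell markers as a set. Of the costimulation genes 1 of 8 was higher and none lower, and of the immature B cell markers 1 of 9 was higher and 2 were lower. B cell identity genes were lower in 5 of 10 and higher in 2, and interferon gamma signalling genes lower in 5 of 8. Of the class I presentation genes 5 of 13 were lower and 2 higher, and of the enhanceosome genes 4 of 14 lower and 2 higher. Total counts of this pair, 19095927 in the old and 13474162 in the young library, lay within the range of the other libraries for the old and below it for the young one. The part of cell content, RNA quality or date in these differences was not tested. In bulk RNA, fewer cells of a type and less RNA per cell cannot be told apart.

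**Figure D2:**
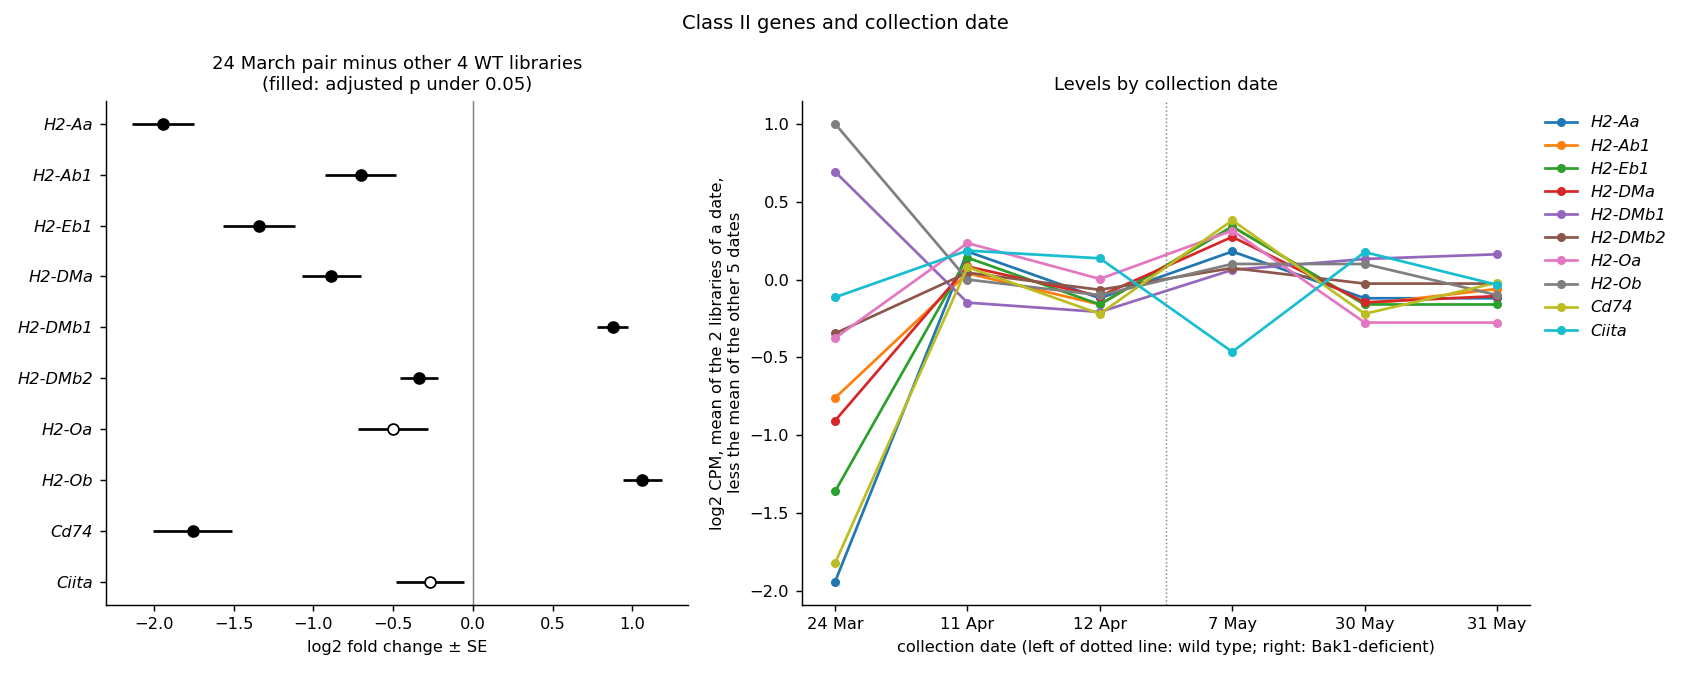
Left, log2 fold change ± SE of the 24 March pair against the other 4 WT libraries, with filled points for an adjusted p under 0.05. Right, mean log2 CPM of the 2 libraries of each date less the mean of the 5 dates other than 24 March. H2-Aa and Cd74 are at the bottom and H2-Ob and H2-DMb1 at the top on 24 March, and Ciita is lowest on 7 May.

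Collection date also separated libraries within the Bak-/- groups. The 7 May libraries (replicate 3 of each Bak-/- group) had the highest H2-Ab1 of all 12 libraries, 3384 CPM in the apoptosis-resistant and 3341 CPM in the apoptosis-sensitive library, against 2144 to 2487 CPM in the other 4 Bak-/- libraries. Relative to the mean of 30 and 31 May, the 7 May pair was higher on the log2 scale by 0.51 for H2-Ab1, 0.53 for H2-Eb1, 0.34 for H2-Aa, 0.40 for H2-DMa, 0.59 for H2-Oa and 0.46 for Cd74. The difference was 0.09 for H2-DMb2, 0.07 for H2-Ob and -0.08 for H2-DMb1. Ciita was lower in the same pair, with a difference of -0.54. This date difference was not tested. For 9 of the 10 genes the means of the 6 dates spanned more than the largest difference within a date, the exception being Ciita. With the 24 March pair left out of both measures this held for 7 of the 10, and not for H2-DMb2, H2-Ob and Ciita. WT and Bak-/- libraries had no date in common, so the span of the date means holds genotype as well as date. The share of all genes for which this held was not computed.

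The comparison of old with young WT cells asks what age does to class II RNA. None of the 10 genes was called between old and young WT cells, against 2.01% of all genes (273 of 13592, with 1.7% higher and 0.309% lower in old cells). None had an unadjusted p under 0.05, against 11.6% of all genes, in this fit, which takes no account of the shared dates. With collection date as a block the unadjusted p was 0.00273 for H2-DMb1 and 0.0387 for H2-Oa (edgeR). The blocked log2 fold change of H2-Oa was 0.22 ± 0.09 (adjusted p = 0.142, edgeR), in a fit that called 14.9% of all genes. DESeq2 called none either, against 5.16% of all genes, and no member's groups were free of overlap, against 16.1% of all genes. Of the members, 8 had a positive and 2 a negative log2 fold change, with a median of 0.12, against -0.03 for all genes.

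The chains of the class II molecule did not pass the test in this comparison. H2-Aa had 938, 4474 and 3510 CPM in old WT libraries, against 949, 3573 and 3051 CPM in young WT libraries. Both groups held a low 24 March library, and the April libraries of the old group were above those of the young group of the same date. The log2 fold change was 0.24 ± 0.54 (95% interval -0.997 to 1.47, edgeR adjusted p = 0.966). It was 0.27 ± 0.21 without the 24 March pair (adjusted p = 0.66, edgeR), a fit that called 1.64% of all genes. H2-Ab1 averaged 2324 ± 827 CPM in old and 2143 ± 413 CPM in young WT cells (SD, n = 3 each), a log2 fold change of 0.12 ± 0.31. H2-Eb1 averaged 2596 ± 1282 CPM in old and 2180 ± 887 CPM in young WT cells, a log2 fold change of 0.25 ± 0.43. Cd74, the invariant chain, had 2698, 12792 and 10206 CPM in old WT libraries, against 3978, 11574 and 10139 CPM in young WT libraries, and the groups overlapped throughout. Its log2 fold change was 0.00022 ± 0.52 (adjusted p = 1.0, edgeR). The 95% interval of -1.21 to 1.21 leaves room for a sizeable difference in either direction, but this fit takes no account of the shared dates. With collection date as a block the log2 fold change of Cd74 was -0.13 ± 0.15 (95% interval -0.548 to 0.279, adjusted p = 0.586, edgeR). That of H2-Aa was then 0.17 ± 0.11 (95% interval -0.132 to 0.473, adjusted p = 0.321, edgeR).

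H2-DMb1 was the member with the smallest p between old and young cells. This beta chain of the peptide exchange factor had 282, 166 and 167 CPM in old WT libraries, against 393, 208 and 189 CPM in young WT libraries. The groups overlapped, the April libraries taken alone did not, and on each of the 3 dates the old library was lower, by 0.48, 0.32 and 0.18 on the log2 scale on 24 March, 11 April and 12 April, as 25.2% of all genes were. The log2 fold change was -0.36 ± 0.28 (edgeR adjusted p = 0.78). With collection date as a block H2-DMb1 passed the test, falling by 0.33 ± 0.09 (adjusted p = 0.027, edgeR), at a background of 14.9% of all genes called in that fit. The call was lost in the same fit without the 24 March pair, where the value was -0.25 ± 0.09 (adjusted p = 0.118, edgeR) and 6.72% of all genes were called. H2-DMb2, which encodes the other beta chain, had a log2 fold change of 0.01 ± 0.19 and its 95% interval of -0.42 to 0.45 was the narrowest of the 10. H2-DMb1 and H2-DMb2 transcripts were 95.3% identical over 1093 aligned bases and shared 27.2% and 26.8% of their 50-base stretches, so the division of reads between these genes is uncertain. No other pair of members shared a 50-base stretch.

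The other members also overlapped between the ages. H2-DMa, the alpha chain of H2-M, had 165, 379 and 350 CPM in old WT libraries, against 199, 339 and 282 CPM in young WT libraries (log2 fold change 0.12 ± 0.31). H2-Oa averaged 177 ± 44.4 CPM in old and 150 ± 26.1 CPM in young WT cells (log2 fold change 0.23 ± 0.26). H2-Ob had 2518, 1303 and 1412 CPM in old WT libraries, against 3335, 1502 and 1347 CPM in young WT libraries (log2 fold change -0.24 ± 0.35). The highest library of both groups was that of 24 March. Ciita had 850, 904 and 925 CPM in old WT libraries, against 643, 919 and 834 CPM in young WT libraries (log2 fold change 0.16 ± 0.25, edgeR adjusted p = 0.939). The old libraries lay close together and overlapped the upper part of the young range. Without the 24 March pair none of the 10 was called either. The log2 fold changes were then 0.24 ± 0.25 for H2-Ab1, 0.31 ± 0.26 for H2-Eb1, 0.23 ± 0.20 for H2-DMa, 0.32 ± 0.26 for H2-Oa, -0.07 ± 0.13 for H2-Ob, 0.09 ± 0.25 for Cd74 and 0.06 ± 0.24 for Ciita.

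**Figure D3:**
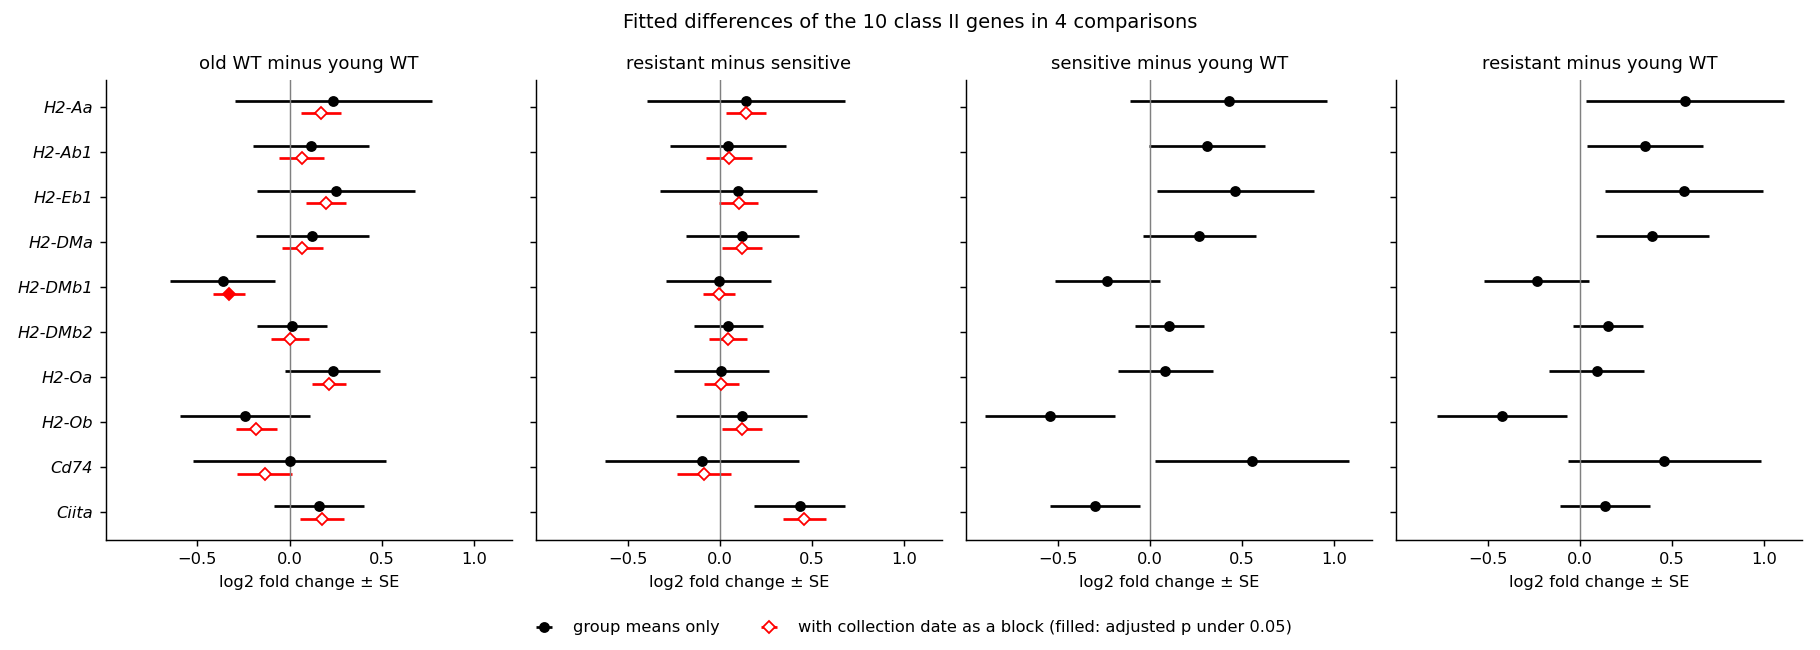
Log2 fold change ± SE of the 10 genes in 4 comparisons, from the fit of group means (black) and, where the groups shared dates, with collection date as a block (red, filled where the adjusted p was under 0.05). H2-DMb1 in old against young cells (-0.33) is the only filled point.

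H2-Eb2, a neighbouring beta-chain gene that is not among the 10, was higher in old cells in each date pair, as 22.8% of all genes were. It had 141, 341 and 352 CPM in old WT libraries, against 98.3, 233 and 223 CPM in young WT libraries. The April libraries of the old group were the highest of all 12. The log2 fold change was 0.59 ± 0.36 (edgeR adjusted p = 0.644). With collection date as a block H2-Eb2 rose by 0.58 ± 0.09 (adjusted p = 0.00202, edgeR), and without the 24 March pair it rose by 0.61 ± 0.12 (adjusted p = 0.0423, edgeR). In the blocked fit its age effect exceeded its genotype effect by 0.60 ± 0.12 (adjusted p = 0.0177, edgeR, with 7.03% of all genes called), while without the block that difference was 0.61 ± 0.50 (adjusted p = 1.0, edgeR). H2-Ea, annotated in RefSeq as a transcribed pseudogene, had 5 to 30 counts per library and did not pass the test in any of the 4 comparisons.

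Genes that act on class II molecules or on Ciita were examined as lists, which were chosen with earlier results of these data known. In old against young WT cells none of the 14 enhanceosome and Ciita regulator genes passed the test, with a median log2 fold change of -0.14. The smallest p values were those of Prdm1, a repressor of Ciita (1.59 ± 0.50, edgeR adjusted p = 0.166), and Nfya, an NF-Y subunit (-0.42 ± 0.20, adjusted p = 0.447). None of the 10 endosomal proteases and reductases passed (median 0.19; Ctsh 0.28 ± 0.16 and Ctsl 0.85 ± 0.49), none of the 7 tested surface turnover genes (median 0.61; Cd9 1.28 ± 0.38 and Cd83 0.61 ± 0.31) and none of 13 class I presentation genes (median 0.23). In the class I list Psmb9, an immunoproteasome subunit, had a log2 fold change of 0.82 ± 0.21 (adjusted p = 0.0709, edgeR) and Nlrc5, the class I counterpart of Ciita, 1.14 ± 0.38 (adjusted p = 0.207, edgeR). Nlrc5 had 545, 269 and 307 CPM in old WT libraries, against 108 to 289 CPM in young WT libraries. Of 8 genes of interferon gamma signalling, which induces Ciita in many cell types, Socs1, an inhibitor of that signal, rose by 1.77 ± 0.40 (adjusted p = 0.048, edgeR). Of 8 costimulation genes, 2 rose, in a fit that called 1.7% of all genes as higher in old cells. Cd80, a ligand of CD28, had 29.4, 19.6 and 9.14 CPM in old WT libraries, against 2.96, 2.48 and 2.57 CPM in young WT libraries, with no overlap (log2 fold change 2.86 ± 0.40, adjusted p = 0.00563, edgeR). Tnfsf4, the OX40 ligand, rose by 3.95 ± 0.82 (adjusted p = 0.034, edgeR). It had 0.93 to 2.76 CPM in old and at most 0.246 CPM in young WT libraries.

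With collection date as a block, more genes of these lists passed between old and young WT cells, in a fit that called 7.89% of all genes as higher and 7.03% as lower. Class I presentation had 5 of 13 higher, namely Psmb9 (0.82), Tap1 (0.53), Psmb8 (0.31), H2-K1 (0.39) and Nlrc5 (1.22). The protease list had 4 of 10 higher, Ctsl (0.89), Ctsb (0.41), Ifi30 (0.33) and Ctsh (0.28), and the turnover list 3 of 7, Cd83 (0.63), Cd9 (1.42) and Marchf8 (1.61). Cd83 is known to protect surface class II from the ubiquitin ligase MARCH1, and MARCH8 is a related ligase that removes class II. The enhanceosome list had 5 of 14 lower, the NF-Y subunits Nfya (-0.42) and Nfyb (-0.36), Creb1 (-0.41), Spi1 (-0.29) and Bach2 (-0.45). Of the interferon gamma signalling genes given here, Socs1 (1.78) and Irf1 (0.63) were higher and Irf2 (-0.36) lower. In the same fit 4 of 6 dendritic cell markers, 6 of 9 monocyte and macrophage markers and 6 of 8 T cell markers were higher, 7 of 9 immature B cell markers were lower, and of the B cell identity genes Fcer2a (-0.74) and Cr2 (-0.46) were lower. The part of these cells in the calls was not tested. Each of the values in this paragraph is a log2 fold change with an edgeR adjusted p under 0.05 in the blocked fit.

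Markers of other cells, among them dendritic cells and macrophages that carry class II, were examined in the same comparison. The fit of group means used here called 1.7% of all genes as higher and 0.309% as lower in old cells. Conventional dendritic cell markers summed to 94.4, 115 and 110 CPM in old WT libraries, against 14, 19.6 and 31.3 CPM in young WT libraries, and 3 of 6 tested rose (Sirpa, Itgax and Flt3). Most of each sum was Sirpa, with 57.3 to 87.8 CPM in old and 12.1 to 25.4 CPM in young WT libraries. Cd209a of this list was not higher in old cells, with 0.205 to 0.86 CPM, against 0.329 to 1.12 CPM in young WT libraries. Monocyte and macrophage markers summed to 57.8, 138 and 236 CPM in old WT libraries, against 33.8, 27.4 and 147 CPM in young WT libraries, and 1 of 9 tested rose (Adgre1). Of these sums Lyz2 gave 16.3, 34.2 and 132 CPM in old and 16.2, 6.68 and 106 CPM in young WT libraries. The plasma cell list summed to 530, 6076 and 1121 CPM in old and 415 to 842 CPM in young WT libraries, and Igha rose. Igha had 128, 4269 and 482 CPM in old and 6.82 to 36.5 CPM in young WT libraries. With collection date as a block Igha did not pass (adjusted p = 0.0614, edgeR), nor did any of the 9 plasma cell markers. T cell markers summed to 42.3 to 77.0 CPM in old and 36.0 to 72.0 CPM in young WT libraries, and 2 of 8 rose (Cd3g and Trac). Most of each sum was Lck, with 26.3 to 60.1 CPM in old and 34.3 to 70.6 CPM in young WT libraries. Cd3g had 3.06 to 9.54 CPM in old and 0.300 to 0.411 CPM in young WT libraries, and Trac 1.08 to 2.42 and 0.128 to 0.330 CPM. Immature B cell markers summed to 53.2 to 85.7 CPM in old and 163 to 323 CPM in young WT libraries, and 2 of 9 fell, Cd93, for whose absence the cells had been sorted, by 1.43 ± 0.19 (adjusted p = 0.00514, edgeR) and Sox4 by 2.24 ± 0.37 (adjusted p = 0.0112, edgeR). Granulocyte markers (0 of 7 called) summed to 108 to 684 CPM in old and 26.2 to 772 CPM in young WT libraries, and erythroid markers (0 of 5) to 18.9 to 155 and 18.1 to 249 CPM. No marker of these lists was at 0 in all 12 libraries. B cell identity genes summed to 16133 to 19935 CPM in old and 21529 to 23070 CPM in young WT libraries, and all 3 old libraries lay below the young ones, with none of 10 called. The part of these cells in the age comparison was not tested.

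Loss of Bax in cells that already lacked Bak was examined by setting apoptosis-resistant against apoptosis-sensitive cells. None of the 10 genes was called between apoptosis-resistant and apoptosis-sensitive cells, against 0.0441% of all genes (6 of 13592). In this fit, which takes no account of the shared dates, none had an unadjusted p under 0.05, against 4.9% of all genes. DESeq2 called none, against 0.944% of all genes, and no member's groups were free of overlap, against 14.6% of all genes. The median log2 fold change was 0.07, against -0.02 for all genes.

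Ciita had the largest difference of the 10 between these genotypes. It had 1043, 845 and 743 CPM in apoptosis-resistant libraries, against 780, 720 and 449 CPM in apoptosis-sensitive libraries. The resistant library was the higher one on each of the 3 dates, by 0.42, 0.23 and 0.73 on the log2 scale on 30 May, 31 May and 7 May, and the groups overlapped. The log2 fold change was 0.43 ± 0.25 (95% interval -0.13 to 0.998, edgeR adjusted p = 1.0). With collection date as a block it was 0.46 ± 0.12 (adjusted p = 0.0621, edgeR), at a background of 3.41% of all genes called. In the blocked fit without the 24 March pair, an alternative chosen after the data had been seen, Ciita passed with 0.46 ± 0.10 (adjusted p = 0.0405, edgeR), where 4.11% of all genes did. Among all genes, 22.0% were higher in the resistant library on all 3 dates.

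The targets of CIITA had smaller differences between the genotypes. Cd74 had 10872, 10359 and 14046 CPM in apoptosis-resistant libraries, against 9880, 12195 and 15642 CPM in apoptosis-sensitive libraries (log2 fold change -0.10 ± 0.52). The highest library of each group was that of 7 May. H2-Aa had 3555, 3314 and 4365 CPM in apoptosis-resistant libraries, against 3010, 3242 and 3928 CPM in apoptosis-sensitive libraries. The resistant library was higher on each date and the groups overlapped (log2 fold change 0.14 ± 0.54). H2-Ab1 averaged 2740 ± 558 CPM in resistant and 2657 ± 617 CPM in sensitive cells (SD, n = 3 each), and H2-Eb1 3222 ± 700 and 3008 ± 694 CPM, with log2 fold changes of 0.04 ± 0.31 and 0.10 ± 0.43. H2-DMa, H2-DMb1, H2-DMb2, H2-Oa and H2-Ob had log2 fold changes between -0.0049 and 0.12. The SEs of this fit draw on all 12 libraries, including the WT pair that stood apart. They are therefore no measure of the spread among the Bak-/- libraries alone. With collection date as a block the log2 fold change was 0.14 ± 0.11 for H2-Aa and 0.05 ± 0.12 for H2-Ab1. It was then 0.10 ± 0.11 for H2-Eb1 and -0.08 ± 0.15 for Cd74, and none of these passed the test (edgeR). H2-DMb1 had 220, 230 and 220 CPM in resistant libraries, against 231, 231 and 211 CPM in sensitive libraries, and the groups overlapped. The age and genotype effects of the members, tested against each other, differed for none of the 10 with or without the block. That test called 0.25% of all genes without the block.

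Of the other lists none held a gene that passed the test between the Bak-/- groups, and the median of each list is set against -0.02 for all genes. The enhanceosome list had a median of 0.02 (smallest p for Prdm1, 0.90 ± 0.49, and Bach2), class I presentation -0.06 (Psmb10 and H2-D1), interferon gamma signalling -0.12 (Irf1 and Ifngr2), turnover -0.02 (Cd83 and Cd9), costimulation 0.12 (Cd80 and Tnfsf4) and the protease list -0.08 (Ifi30 and Ctsh). Ifi30 encodes GILT, the reductase that opens disulphide bonds of antigens before class II loading. It had 114, 121 and 136 CPM in apoptosis-resistant libraries, against 223, 242 and 337 CPM in apoptosis-sensitive libraries. All 3 resistant libraries lay below all 3 sensitive ones. The log2 fold change was -1.11 ± 0.28 (edgeR adjusted p = 0.324). It passed with collection date as a block, falling by 1.09 ± 0.09 (adjusted p = 0.000199, edgeR), without the 24 March pair (-1.11 ± 0.16, adjusted p = 0.0308, edgeR, with 0.225% of all genes called) and in DESeq2 (-1.11 ± 0.30, adjusted p = 0.029), and did not pass when only the 6 Bak-/- libraries were fitted (-1.10 ± 0.18, adjusted p = 0.105, edgeR). With the block, in a fit that called 3.41% of all genes, Cd80 also rose, by 1.28 ± 0.28 (adjusted p = 0.0308, edgeR). It had 6.35, 7.70 and 10.5 CPM in resistant libraries, against 3.72, 2.65 and 3.69 CPM in sensitive libraries. Of the markers of other cells, Csf1r (1.56 ± 0.30, adjusted p = 0.0165) rose and Cd93 (-0.85 ± 0.14, adjusted p = 0.00851) and Myb (-1.53 ± 0.22, adjusted p = 0.0115) fell in the blocked edgeR fit. Dendritic cell markers summed to 27.1 to 43.5 CPM in resistant and 23.1 to 29.9 CPM in sensitive libraries, and granulocyte markers to 29.3 to 68.8 CPM in resistant and 77.4 to 735 CPM in sensitive libraries. Erythroid markers summed to 28.1 to 56.8 CPM in resistant and 32.1 to 190 CPM in sensitive libraries, and monocyte and macrophage markers to 49.2 to 67.6 CPM in resistant and 40.7 to 136 CPM in sensitive libraries. Most of each dendritic cell sum was again Sirpa. Lyz2 gave 26.8 to 33.8 CPM of the monocyte and macrophage sums in resistant and 21.8 to 115 CPM in sensitive libraries. The granulocyte sums did not overlap between the genotypes. Their part in these differences was not tested.

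**Figure D4:**
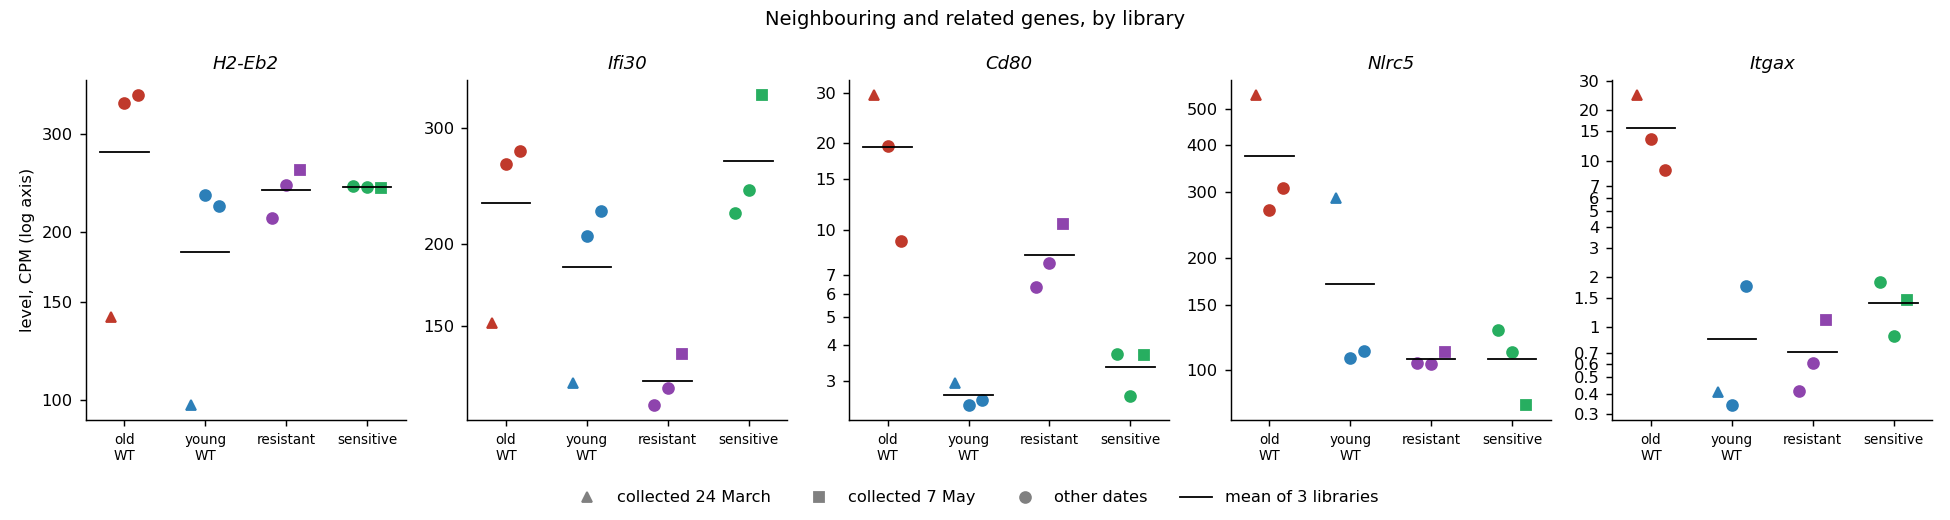
Level in CPM (log axis) of H2-Eb2, Ifi30, Cd80, Nlrc5 and the dendritic cell marker Itgax in the 12 libraries, with a line at each group mean. Ifi30 lies at 114 to 136 CPM in all 3 apoptosis-resistant libraries, below the apoptosis-sensitive libraries, and Cd80 and Itgax are higher in old than in young WT libraries.

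Apoptosis-sensitive and apoptosis-resistant cells were each set against young WT cells, which were of like age but shared no collection date with them, so that date and genotype cannot be told apart. Both comparisons also share the young WT libraries. The 8 H2 genes among the members lie 7.06 to 7.28 Mb from Bak1, the locus knocked out in both Bak-/- groups, and the part of that linkage was not tested. Ciita lies on chromosome 16 and Cd74 on chromosome 18. None of the 10 genes was called for apoptosis-sensitive cells, in a comparison that called 0.0% of all genes (2.73% had an unadjusted p under 0.05, and 0 members did). DESeq2 called 14 genes there (0.103%), and none was a member. None was called for apoptosis-resistant cells, against 0.162% of all genes (22 of 13592). No member's groups were free of overlap, against 8.81% and 12.9% of all genes. The largest log2 fold changes against young WT were those of Cd74 in sensitive cells (0.55 ± 0.53) and H2-Aa in resistant cells (0.57 ± 0.54). Without the 24 March libraries they were 0.23 ± 0.23 for Cd74 and 0.20 ± 0.19 for H2-Aa. The sign of H2-Ob depended on those libraries. Its log2 fold change in sensitive cells was -0.54 ± 0.36 with them and 0.01 ± 0.12 without them, and in resistant cells -0.42 ± 0.36 with them and 0.13 ± 0.12 without them. H2-DMb1 also changed sign, with -0.23 ± 0.29 and 0.19 ± 0.09 in sensitive cells and -0.24 ± 0.29 and 0.19 ± 0.09 in resistant cells. None of the related lists held a called gene in either comparison.

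Ratios within a library remove what a library shares across genes. Of 10 ratios of CPM per kb, 1 had groups that did not overlap by genotype and another 1 by age. The ratio of Cd74 to H2-Ab1 was 3.82, 3.70 and 3.55 in apoptosis-resistant libraries, against 3.94, 4.20 and 4.01 in apoptosis-sensitive libraries. All 3 resistant values lay below the sensitive ones. The two-sided exact permutation p was 0.1, the smallest that 3 libraries against 3 allow, and 0.667 after Benjamini-Hochberg adjustment over the 10 ratios. In WT cells the ratio was 1.62, 3.60 and 3.48 in old libraries, against 1.98, 3.90 and 3.99 in young libraries, lower in old on each date and overlapping between the groups. The ratio of H2-Eb2 to H2-Eb1 was 0.0593, 0.0458 and 0.0585 in old WT libraries, against 0.0411, 0.0401 and 0.0437 in young WT libraries, again with no overlap and an exact permutation p of 0.1 (0.625 adjusted over the 10 ratios). H2-DMb1 was 0.697, 0.295 and 0.300 of H2-DMb2 in old WT libraries, against 0.866, 0.368 and 0.386 in young WT libraries. H2-Aa, whose chain pairs with that of H2-Ab1, was 0.709 and 0.594 of H2-Ab1 in the old and young 24 March libraries and 1.26 to 1.58 of it in the other 10.

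**Figure D5:**
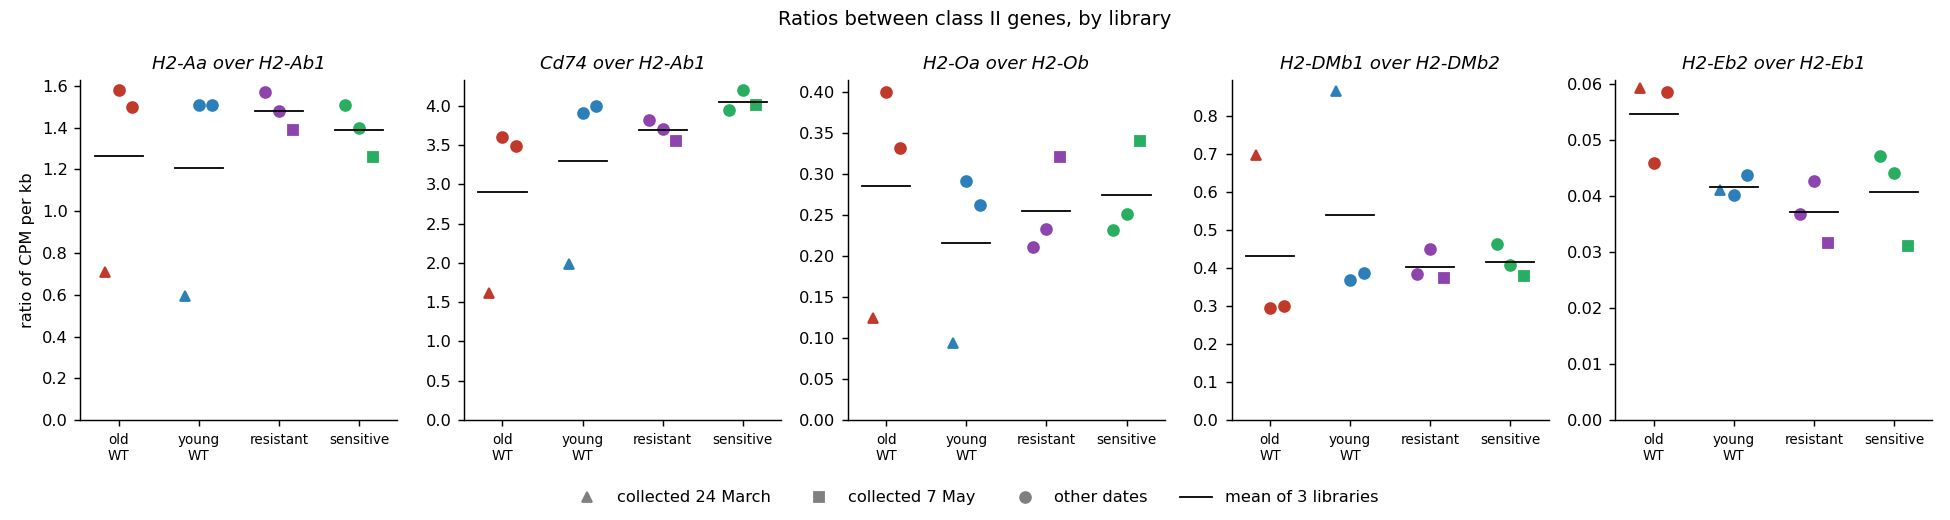
Ratio of CPM per kb between pairs of class II genes in the 12 libraries, on linear axes from 0, with a line at each group mean. The ratio of Cd74 to H2-Ab1 is 3.55 to 3.82 in apoptosis-resistant and 3.94 to 4.20 in apoptosis-sensitive libraries, and the 24 March libraries (triangles) stand apart in the ratios of H2-Aa, Cd74, H2-Oa and H2-DMb1.

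The members did not vary as a single block across libraries. Given as a description over the 10 libraries of 2016, which share groups and dates, H2-Ab1 and H2-Eb1 had the closest log2 levels (Pearson r = 0.984), followed by H2-Eb1 with H2-DMa (0.970) and H2-Ab1 with H2-DMa (0.960). Ciita ran against Cd74 (-0.696) and H2-Ab1 (-0.508), and H2-DMb1 against H2-Oa (-0.577). With the mean standardised level of the 10, H2-DMa had the highest correlation (0.969) and Ciita the lowest (-0.269). Each gene is itself part of that mean, which raises its correlation. Of 8831 other genes with at least 10 CPM, those most like this mean over all 12 libraries were Nub1, Irgc1, Rnf187, Zdhhc7, Mcat and Dazap2. Over the 10 libraries of 2016 their correlations with it were 0.951, 0.913, 0.792, 0.907, 0.885 and 0.942. The least like were Cklf, Dclre1c and Phf10, at -0.800, -0.897 and -0.853. The set of 12 used to choose these genes holds the 24 March pair and also the 10 libraries of 2016, so the values over the 10 are no independent check.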

How the data were processed

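The authors deposited 1 table of unnormalised counts, whole numbers of reads for each gene in 12 libraries. The submitters' processing notes name Subread, featureCounts and mm10. Versions, annotation and strand setting are not stated there, so reads of overlapping or antisense genes are uncertain. Symbols came from RefSeq (GRCm38.p6) and matched 25275 of 27179 Entrez numbers. Totals of 13474162 to 23539764 counts per library set the counting precision, and spread between libraries was the larger error for these abundant genes.

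Counts were scaled by TMM in edgeR 4.0.16 (R 4.3.3), filtered with filterByExpr (minimum 10 reads, 13592 genes kept) and fitted by group over all 12 libraries with the robust quasi-likelihood test (residual degrees of freedom: 8). Benjamini-Hochberg adjustment ran over all genes tested, with a threshold of 0.05. The test was tried on simulated data. Intervals of 95% are the log2 fold change ± the t quantile times SE. Length was the exon union of GENCODE M21 transcripts paired with RefSeq, since a RefSeq exon annotation was not used here. Pair differences and correlations used log2(CPM + 0.5).

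The labels give a number's libraries a shared collection date, and same-numbered libraries deviated together (correlations of deviations from 0.284 to 0.745). A fit with date as a block (4 residual degrees of freedom) is therefore given where it changed a call. It is also given for Cd74, H2-Aa, H2-Oa and Ciita, and for H2-Ab1 and H2-Eb1 between the Bak-/- groups. Other alternatives were DESeq2 1.42.0, its size factors, no filter, only the 6 libraries compared, each library left out in turn and the 24 March pair left out. The members and lists were chosen with earlier results of these data known. All 10 members, Bax, Bak1 and the other class II region genes were named. From each related list up to 4 genes that passed were named, or the pair with the smallest p where none did. For the comparisons with young wild type and for marker lists with no call, lists are given by counts or sums. Genes called in the blocked fit were named after their values had been seen. Some genes of the lists are not reported here.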

Additional observations from a re-analysis of the deposited data

Results flagged for a closer look

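The age effect and the genotype effect lay in opposite directions in all 3 date pairs of each, or differed by the test, for 11 named genes, none of them a member. The share of all genes that met this rule was not computed. Among all genes, 48.0% moved one way in all 3 date pairs by age and 45.2% by genotype, so many genes can meet it without a tested difference. The difference (old minus young WT, less resistant minus sensitive, log2 ± SE from the edgeR fit of group means) passed the test for Bax, at 3.32 ± 0.52 (adjusted p = 0.0291). Bax is the gene deleted in the resistant mice, and that fit called 0.25% of all genes. For the other genes the difference did not pass in that fit. It was 1.44 ± 0.40 for Ifi30 (adjusted p = 0.238; 1.42 ± 0.13, adjusted p = 0.000168, with collection date as a block in edgeR). It was 1.07 for Cd83, 1.74 for Cd9, 0.87 for Irf1, 0.59 for Tap1 and 0.485 for H2-K1. It was 5.17 for Itgax, -0.82 for Bach2, -1.07 for Fcer2a and -0.365 for Bak1. With the block, all of these except H2-K1 and Bak1 passed as well, in a fit that called 7.03% of all genes. The blocked fit uses the same differences within dates by which genes were flagged. A pass in it, that of Ifi30 included, is therefore no independent support.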

How the results depend on the processing

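The number of members called was 0 in the 4 comparisons and in the test of the age effect against the genotype effect in all but 2 of the settings tried. With the replicate block of collection date, 1 member (H2-DMb1) was called between old and young WT cells. In the block fit without the 24 March pair, 1 member (Ciita) was called between the Bak-/- groups. No paired analysis was possible for the comparisons with young WT because they shared no date, and the block changed no other member's call. Calls over all genes depended more on the fit. Old against young WT gave 273, and 700 with DESeq2, 2028 with the block, 925 with the block without the 24 March pair, 1 with only the 6 libraries and 75 to 238 with a library left out (75 without young replicate 2, 86 without old replicate 2, 160 without old replicate 3, 165 without young replicate 1 and fewer than with all also without young replicate 3). Resistant against sensitive gave 6, and 128, 463, 565 in the first 3 of these, 11 with no filter, 31 without the 24 March pair and 0 to 5 with a library left out. Sensitive against young WT gave 0, and 14 with DESeq2, 3 with no filter, 3 without the 24 March pair and 0 to 1 with a library left out. Resistant against young WT gave 22, and 148 with DESeq2, 34 with no filter, 12 with only the 6 libraries and 10 to 20 with a library left out (20 without young replicate 2 and at most 13 without any other). For the 24 March pair, leaving a library out gave 3558 to 5826 genes (3558 without the young and 4356 without the old library of that date) and 5 to 8 members. The cause of these shifts was not tested. Members that were not called changed sign with 1 library left out: between old and young WT cells Cd74 ranged from -0.40 to 0.42, H2-Aa from -0.18 to 0.66, H2-DMb1 from -0.66 to 0.07 and H2-Ob from -0.60 to 0.32. Levels per length moved by less than the SD with the longest transcript. Depth was ample for these abundant genes, but the 95% intervals of the members over the 4 comparisons reached from -1.36 to 1.81 in the fit of group means.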
